A study of Mus musculus with 9 samples.

Results

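The KLF family of transcription factors was followed in mouse erythroid cells as GATA1 was switched on. Its members were 10 listed genes (Klf1, Klf2, Klf3, Klf4, Klf6, Klf9, Klf10, Klf11, Klf12 and Klf13) of 24391 genes in the gene-body table. The 117 entries of the table of transcription initiation regions that name one of them as an overlapped or neighbouring gene were added, of 42114 entries in all. The assay was PRO-seq, which maps RNA polymerases caught in the act of transcription, and dREG peaks are the places where it sees polymerase initiating at promoters and enhancers. G1E is an erythroid progenitor line derived from embryonic stem cells that lack GATA1. G1E-ER4 cells are G1E cells that express GATA1-ER, a fusion of GATA1 with the hormone-binding part of the oestrogen receptor, which estradiol activates. Libraries came from G1E-ER4 cells left untreated (0 h, n = 3), from G1E-ER4 cells kept in 100 nM estradiol for 13 h (n = 2) or for 24 h (n = 2), and from G1E cells left untreated (n = 2). All groups grew with epoetin and kit ligand, and all descend from 1 immortalised line. G1E cells were not given estradiol, so an effect of the hormone and an effect of GATA1-ER cannot be told apart. The labels do not say that replicates were separate cultures, so p-values measure the spread between these libraries.

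Krüppel-like factors bind GC-rich and CACCC sequences through zinc fingers at the end of the protein, and differ in the domains that recruit partners. KLF1 is the erythroid activator of globin, haem and red cell membrane genes. KLF3 is a repressor that recruits CtBP and binds many of the same sites, and its gene is itself a known target of KLF1. KLF9, KLF10, KLF11 and KLF13 carry a Sin3-interacting domain and mostly repress, while KLF2, KLF4 and KLF6 mostly activate.

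Each library held between 37830789 and 139945759 gene-body reads, and between 15394427 and 59952454 reads in dREG entries, the fewest in G1E replicate 2. Levels are CPM, read counts scaled by TMM to a common library size. A gene rose or fell where edgeR's quasi-likelihood test gave a Benjamini-Hochberg adjusted p under 0.05 over all genes, or all entries, of a comparison. Fold changes are on the log2 scale ± SE. The 9 erythroid markers found summed to 942 to 992 CPM at 0 h and 1647 to 1776 CPM at 13 h. They summed to 3419 to 3897 CPM at 24 h and to 1072 to 1494 CPM in G1E, where 1 of them was at 0. At 13 h relative to 0 h, 5 of the 9 rose and 1 fell, where 20.1% and 20.9% of all genes did. At 24 h relative to 0 h, 7 rose and 0 fell, where 29.0% and 30.7% of all genes did. In 0 h libraries, 0 were higher and 3 were lower than in G1E, where 7.88% and 9.58% of all genes were. The 4 mast cell markers summed to 34.8 to 81.8 CPM at 0 h, with 1 at 0, to 0.163 to 0.244 CPM at 13 h, with 2 at 0, to 0.0248 to 0.0536 CPM at 24 h, with 3 at 0, and to 29.0 to 53.4 CPM in G1E. Of the 3 mast cell markers tested, 2 were higher at 0 h than in G1E, where 7.88% of all genes were. All 3 were lower at 13 h and at 24 h than at 0 h, where 20.9% and 30.7% of all genes were. The 5 megakaryocyte markers summed to 22.9 to 51.5 CPM, most of it Itga2b except in 13 h replicate 2, where Itga2b had 13.1 of 26.7 CPM. Among them Gp1ba, a platelet receptor subunit, rose at 13 h relative to 0 h (2.04 ± 0.42, adjusted p = 0.00342) and fell between 13 h and 24 h (-2.24 ± 0.48, adjusted p = 0.00992), and Pf4, a platelet chemokine, was lower at 0 h than in G1E (-4.02 ± 0.86, adjusted p = 0.00974). Of the 4 megakaryocyte markers tested, 1 rose and 0 fell at 24 h relative to 0 h, where 29.0% of all genes rose. It was Gp9, at 0.764 and 0.669 CPM at 24 h, against 0.227, 0.0775 and 0.144 CPM at 0 h. Granulocyte and monocyte markers summed to 22.8 to 53.1 CPM, and lymphocyte markers to 0.266 CPM or less. The part of these marker changes in the results on KLF genes was not tested. In bulk cells, fewer cells of a kind and less transcription per cell cannot be told apart.

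The promoters of 4 members that took different courses follow, because initiation was measured there: Klf1 and Klf13, which rose, Klf3, which rose late, and Klf9, which fell. Klf10 is not in the promoter table. They are the 250 bases before the RefSeq start, from RefSeq in build GRCm38.p6, which is not the build of the counts. Capitals mark GATAA, the core of GATA factor sites, and CACCC, the core of many KLF sites, each searched on both strands (TTATC and GGGTG on the other strand), and no base belongs to both.
Klf1, chr8:84901732-84901981, plus strand: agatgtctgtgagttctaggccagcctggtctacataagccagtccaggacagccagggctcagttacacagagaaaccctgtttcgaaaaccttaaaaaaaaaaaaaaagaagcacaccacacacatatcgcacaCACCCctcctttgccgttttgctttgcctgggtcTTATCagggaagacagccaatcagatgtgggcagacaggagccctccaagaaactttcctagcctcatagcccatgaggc
Klf3, chr5:64803271-64803520, plus strand: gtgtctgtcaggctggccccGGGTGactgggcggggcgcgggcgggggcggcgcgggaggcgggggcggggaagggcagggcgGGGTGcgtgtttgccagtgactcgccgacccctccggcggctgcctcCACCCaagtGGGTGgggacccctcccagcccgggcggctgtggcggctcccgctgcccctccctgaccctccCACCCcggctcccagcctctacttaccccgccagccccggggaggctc
Klf13, chr7:63938916-63939165, minus strand: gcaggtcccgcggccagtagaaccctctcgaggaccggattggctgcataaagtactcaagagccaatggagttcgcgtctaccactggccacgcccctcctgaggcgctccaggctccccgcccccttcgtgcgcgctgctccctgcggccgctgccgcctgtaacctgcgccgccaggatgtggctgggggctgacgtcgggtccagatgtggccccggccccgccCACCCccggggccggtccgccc
Klf9, chr19:23140976-23141225, plus strand: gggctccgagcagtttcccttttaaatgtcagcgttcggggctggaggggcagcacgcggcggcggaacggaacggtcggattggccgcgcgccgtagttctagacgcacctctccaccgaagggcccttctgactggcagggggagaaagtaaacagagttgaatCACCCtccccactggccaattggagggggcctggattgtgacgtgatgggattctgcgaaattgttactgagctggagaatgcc
Of the 9 members with a promoter in the RefSeq table, 2 held GATAA (Klf1 and Klf12) and 6 held CACCC. Among 32851 promoters of the same length, 22.6% held GATAA and 52.0% held CACCC. The Klf1 promoter held 1 GATAA match, which begins 80 bases before the start, and 1 CACCC match. Klf3 held 5 CACCC matches, and Klf13 and Klf9 held 1 each. These matches describe the letters of the windows and are not measured sites.

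Of the 10 genes, 7 were transcribed enough to be tested: Klf1, Klf3, Klf6, Klf9, Klf10, Klf11 and Klf13. At 13 h, 4 of them had risen and 3 had fallen relative to 0 h, where 41.0% of all genes changed (20.1% up and 20.9% down). At 24 h, 5 were higher and 2 were lower than at 0 h, where 59.7% of all genes changed (29.0% up and 30.7% down). Between 13 h and 24 h, 3 rose and none fell by edgeR, 24.2% of all genes changed, and 4 of the 7 had an unadjusted p under 0.05. That count was 1 without either 13 h library or without either 24 h library. The members were chosen with earlier results of these data known, so these counts describe them and no more. Their median log2 fold change was 0.73 at 13 h and 1.14 at 24 h relative to 0 h, beside -0.02 and -0.07 for all tested genes.

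**Figure D1:**
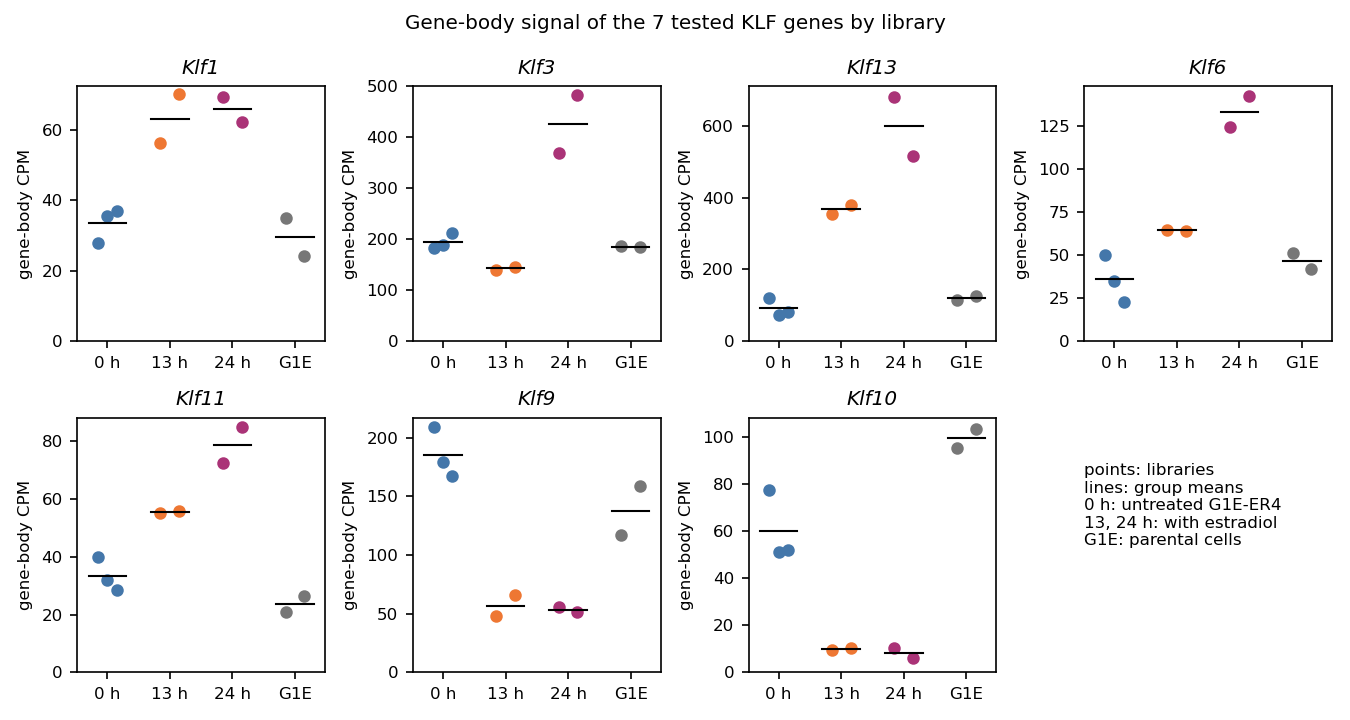
Gene-body signal (CPM, linear axis from 0, a scale of its own for each gene) of the 7 tested KLF genes, with a point for each library and a line at the group mean. Klf13, Klf6 and Klf11 are higher at 24 h than at 0 h, Klf9 and Klf10 are lower at 13 h and 24 h, Klf1 is higher at both times, and Klf3 dips at 13 h and is highest at 24 h.

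Klf1, the erythroid activator, was already transcribed before estradiol. Its gene body had 27.8, 35.5 and 36.9 CPM at 0 h, 56.3 and 70.1 CPM at 13 h, 69.3 and 62.2 CPM at 24 h, and 34.9 and 24.0 CPM in G1E. All 4 estradiol libraries lay above all 0 h and G1E libraries, and the 13 h and 24 h libraries overlapped. Klf1 rose 1.89-fold by 13 h (0.92 ± 0.20, adjusted p = 0.00436) and 1.97-fold by 24 h (0.98 ± 0.20, adjusted p = 0.00168), both relative to 0 h. The 24 h libraries differed from the 13 h libraries by 0.06 ± 0.22 (adjusted p = 0.868), and total counts in place of TMM turned that sign (-0.23). Its dREG peak at the start was split by strand in the file. The sense (plus) strand entry averaged 149 ± 23.2 CPM at 13 h and 168 ± 7.42 CPM at 24 h, against 74.2 ± 16.4 CPM at 0 h (1.00 ± 0.21 and 1.18 ± 0.21, adjusted p = 0.00264 and 0.000441). The minus strand entry of the same peak, which reads divergent transcription, did not pass the test at either time (-0.11 ± 0.19 and 0.46 ± 0.19, adjusted p = 0.698 and 0.0576). The file names no other entry for Klf1. The 3 genes whose log2 CPM was most like that of Klf1 over the 9 libraries were Uros, a haem synthesis enzyme (Pearson r = 0.992), Mllt1, a subunit of the super elongation complex (0.991), and Tbc1d25 (0.989). The libraries share their maturation course, so such values are a description.

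Klf3, the CtBP-dependent repressor, took another course. Its gene body had 182, 188 and 212 CPM at 0 h, 140 and 146 CPM at 13 h, 370 and 483 CPM at 24 h, and 186 and 185 CPM in G1E. The 13 h libraries were the lowest of all and the 24 h libraries the highest, with no overlap between any of the 3 times. Klf3 was 2.20-fold higher at 24 h than at 0 h (1.14 ± 0.13, adjusted p = 4.86e-05) and 2.99-fold higher at 24 h than at 13 h (1.58 ± 0.15, adjusted p = 0.000676). The dip at 13 h relative to 0 h was small (-0.44 ± 0.14, adjusted p = 0.0255). The dip missed the threshold without either 13 h library (adjusted p = 0.146 without replicate 1 and 0.0741 without replicate 2) and without 0 h replicate 2 (0.0509) or 3 (0.094). It also missed the threshold with the replicate number as a block (-0.37, adjusted p = 0.105) and with the leading digits of the library number in the titles as a block (-0.37, adjusted p = 0.103). The start entry followed the same course, at 138 ± 3.72, 109 ± 3.78 and 261 ± 46.8 CPM at 0 h, 13 h and 24 h. It passed the test for 24 h relative to 0 h (0.92 ± 0.18, adjusted p = 0.00067) and to 13 h (1.26 ± 0.20, adjusted p = 0.00249), and not for 13 h relative to 0 h (-0.34 ± 0.18, adjusted p = 0.166). The genes most like Klf3 over the 9 libraries were Fig4 (Pearson r = 0.977), Scaf11 (0.975) and Uimc1 (0.974).

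Klf13, a Sin3-recruiting factor of the KLF9 subgroup, had the largest fold increase of the 7 genes. Its gene body had 120, 71.5 and 81.3 CPM at 0 h, 355 and 380 CPM at 13 h, 682 and 517 CPM at 24 h, and 113 and 124 CPM in G1E. The 3 times did not overlap. Klf13 was 4.04-fold higher at 13 h (2.01 ± 0.21, adjusted p = 7.16e-05) and 6.58-fold higher at 24 h (2.72 ± 0.21, adjusted p = 3.94e-06) than at 0 h. The further rise between 13 h and 24 h was 0.71 ± 0.23 (adjusted p = 0.0489). This last call missed the threshold without either 13 h library, either 24 h library, 0 h replicate 3 or either G1E library (adjusted p from 0.0657 to 0.243). A gene on the other strand inside Klf13, E030018B13Rik, held 1 to 32 reads per library.

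Klf11, another Sin3-recruiting factor, had 40.0, 32.0 and 28.5 CPM at 0 h, 55.3 and 55.9 CPM at 13 h, 72.6 and 85.1 CPM at 24 h, and 21.001 and 26.5 CPM in G1E. The 4 groups did not overlap, and they ran in the order G1E, 0 h, 13 h and 24 h. It rose by 13 h (0.73 ± 0.18, adjusted p = 0.00807) and was 2.36-fold higher at 24 h than at 0 h (1.24 ± 0.18, adjusted p = 0.000178). The steps between 24 h and 13 h (0.50 ± 0.20, adjusted p = 0.0871) and between 0 h and G1E (0.50 ± 0.18, adjusted p = 0.0931) did not pass the test. The start entry gave other steps, and the difference between the measures was not tested. It averaged 61.3 ± 4.89 CPM at 0 h, 68.8 ± 8.46 CPM at 13 h, 180 ± 34.8 CPM at 24 h and 33.4 ± 3.76 CPM in G1E. It did not pass the test at 13 h relative to 0 h (0.17 ± 0.19, adjusted p = 0.534), and it rose at 24 h relative to 0 h (1.55 ± 0.19, adjusted p = 1.66e-05) and to 13 h (1.39 ± 0.21, adjusted p = 0.00222). It was also higher at 0 h than in G1E (0.88 ± 0.20, adjusted p = 0.00601), a call that was lost without G1E replicate 2 (adjusted p = 0.0699).

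Klf9 and Klf10, the other Sin3-recruiting members tested, fell. Klf9, a glucocorticoid- and thyroid hormone-responsive factor, had 209, 180 and 168 CPM at 0 h, 47.9 and 65.8 CPM at 13 h, 55.5 and 51.1 CPM at 24 h, and 117 and 159 CPM in G1E. All 4 estradiol libraries lay below all others. Klf9 was 3.26-fold lower at 13 h (-1.71 ± 0.19, adjusted p = 0.000121) and 3.48-fold lower at 24 h (-1.80 ± 0.19, adjusted p = 2.89e-05) than at 0 h. Klf10, an early response gene of TGF-beta signalling, had 77.4, 51.0 and 52.1 CPM at 0 h, 9.69 and 10.3 CPM at 13 h, 10.2 and 6.13 CPM at 24 h, and 95.3 and 103 CPM in G1E. It was 6.03-fold lower at 13 h (-2.59 ± 0.27, adjusted p = 7.02e-05) and 7.38-fold lower at 24 h (-2.88 ± 0.27, adjusted p = 1.19e-05) than at 0 h. Neither gene passed the test for 24 h relative to 13 h (-0.09 ± 0.20 and -0.29 ± 0.27, adjusted p = 0.761 and 0.45).

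Klf6, a widely expressed early response activator, had 49.9, 35.0 and 22.8 CPM at 0 h, 64.5 and 64.1 CPM at 13 h, 124 and 142 CPM at 24 h, and 51.0 and 42.0 CPM in G1E. The 0 h libraries were the most spread, and the 3 times did not overlap. Klf6 was 3.71-fold higher at 24 h than at 0 h (1.89 ± 0.26, adjusted p = 0.000148). The smaller steps were 0.84 ± 0.26 for 13 h relative to 0 h (adjusted p = 0.0265) and 1.05 ± 0.29 for 24 h relative to 13 h (adjusted p = 0.0277). The earlier step missed the threshold without either 13 h library or 0 h replicate 2 (adjusted p from 0.0625 to 0.0852), and the later one without any one of the 13 h and 24 h libraries (0.0556 to 0.132).

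**Figure D2:**
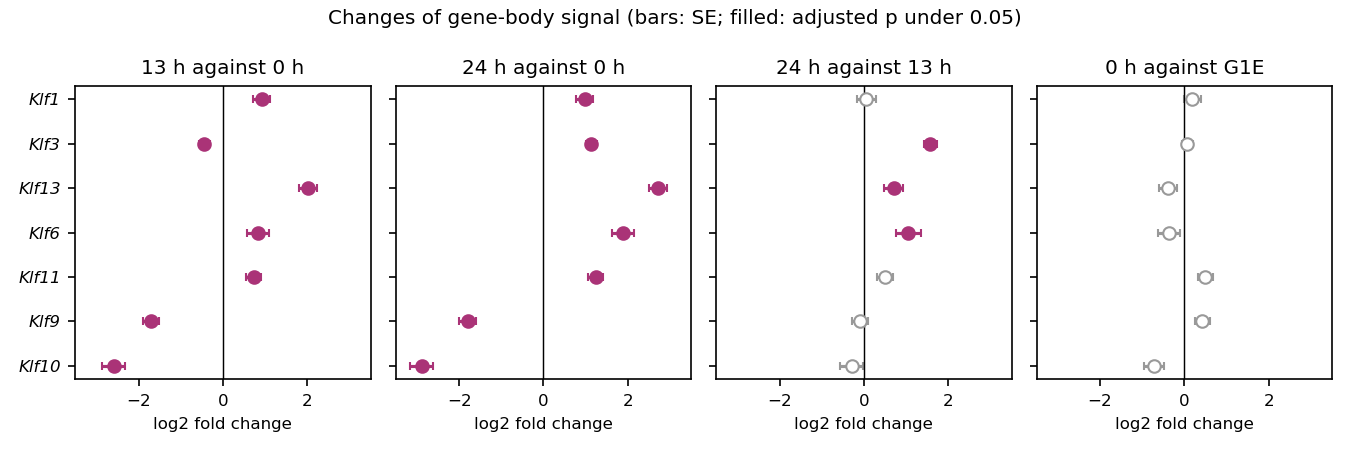
Log2 fold change of gene-body signal (x axis) with its SE for the 7 tested KLF genes (y axis) in the 4 comparisons. Filled points passed an adjusted p of 0.05, which all 7 genes did at 13 h and at 24 h relative to 0 h and none did at 0 h relative to G1E.

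Klf2, Klf4 and Klf12 were at or near 0 and were not tested. The Klf2 row held 0 reads in all 9 libraries, the Klf4 row 1 read in G1E replicate 1 and 0 in the other libraries, and the Klf12 row 0 to 8 reads per library. KLF2 and KLF4 are factors of endothelium, lymphocytes and pluripotent cells, and KLF2 also acts with KLF1 on embryonic globin genes in mice. The part of each gene that was counted is not stated, and Hba-a1, an alpha globin gene, is also listed at 0, so a row at 0 is not evidence of silence for a short gene such as Klf2. No dREG entry lay at the Klf2 or Klf4 start and none named Klf12.

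Untreated G1E-ER4 cells were also set against G1E cells, which shows the state before GATA1-ER was activated. By edgeR, 0 of the 7 genes passed the test for 0 h relative to G1E, where 17.5% of all genes did (7.88% higher and 9.58% lower), 3 had an unadjusted p under 0.05, and DESeq2's Wald test called 1, Klf10 (-0.75, adjusted p = 0.0265). The edgeR values for Klf10 were -0.72 ± 0.23 (adjusted p = 0.0616), with all 0 h libraries below both G1E libraries. Without 0 h replicate 1 the fit called 2 genes, Klf10 (-0.94, adjusted p = 0.0192) and Klf13 (-0.64, adjusted p = 0.026), and without either 24 h library it called Klf10 (adjusted p = 0.031).

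Signal at a start and along a gene measure different stages of the polymerase, and their ratio was followed within each gene. The entries at a start overlap the gene, so the 2 measures may share reads. The start entry was the sense strand alone for Klf1 and Klf6. For Klf3, Klf9, Klf10, Klf11 and Klf13 it counts both strands and so includes divergent transcription. Which strand moved those ratios was not tested. Each measure was scaled by its own TMM factors, so part of a shift in the ratio may come from scaling. With gene-body factors, the median of all entries at 13 h relative to 0 h was 0.06, in place of -0.13. For Klf13 the log2 ratio of start entry to gene body lay between -0.95 and -0.46 at 13 h and between -0.89 and -0.59 at 24 h. It was -0.04 to 0.05 at 0 h, so the gene body gained more than the entry on both strands at the start. Klf11 had 0.74 to 1.01 at 0 h, 0.17 to 0.43 at 13 h and 1.10 to 1.26 at 24 h, lowest at 13 h. Klf10 had 1.28 to 1.79 at 0 h, 1.98 to 2.01 at 13 h and 2.26 to 2.45 at 24 h, a higher ratio at each later time, with 0.98 in both G1E libraries. Klf3 was lowest at 24 h (-0.72 to -0.70) and highest in G1E (-0.23 to -0.19). No test was run on these ratios, whose groups hold 2 or 3 libraries.

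**Figure D3:**
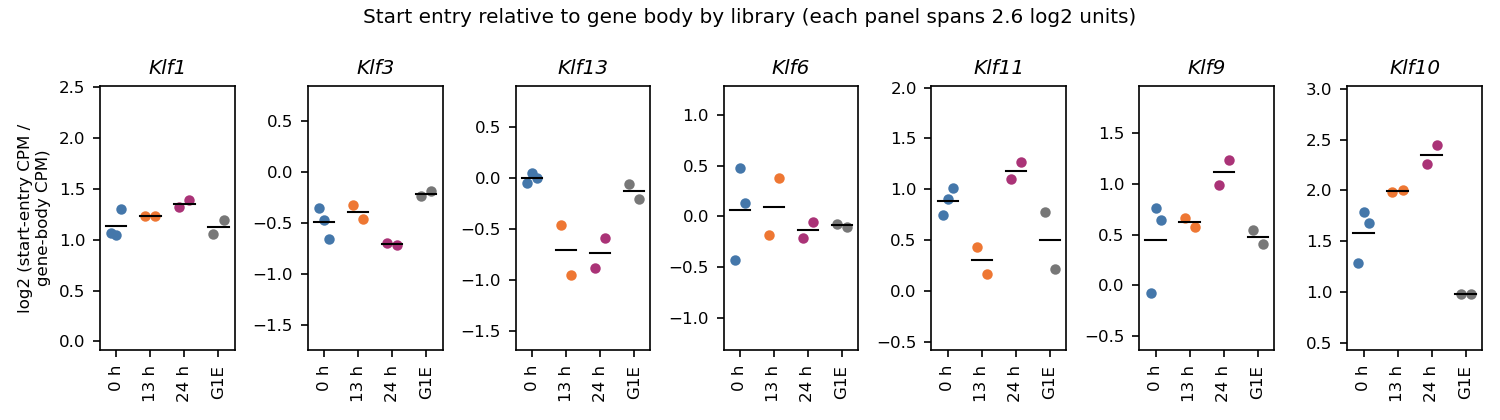
Log2 ratio of start-entry CPM to gene-body CPM (y axis, 2.6 log2 units in each panel) for the 7 tested KLF genes, with a point for each library and a line at the group mean. The start entry is the sense strand for Klf1 and Klf6 and both strands for the others. The Klf13 ratio is near 0 at 0 h and below -0.4 in all 13 h and 24 h libraries, and the Klf10 ratio rises with time.

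The 117 entries come from 77 dREG peaks, 37 of them whole peaks and 80 single strands of a peak, and 97 had enough reads to be tested. An entry is called here by the distance of its centre from the member's start in kb, negative for upstream. The file names neighbouring genes for an entry between genes, so a name does not show that the entry acts on that gene. At 13 h, 28 of the 97 had risen and 28 had fallen relative to 0 h, where 33.8% of all tested entries changed (15.2% up and 18.6% down). At 24 h, 34 had risen and 33 had fallen, where 52.2% of all entries changed (22.7% up and 29.5% down). Between 13 h and 24 h, 12 of the 97 changed, 6 up and 6 down, where 13.1% of all entries changed (5.28% up and 7.82% down). Members differed in direction. Of the tested entries of Klf13, 18 of 25 had risen and 1 had fallen at 13 h, of Klf11 5 of 10 had risen and 0 had fallen, and of Klf10 0 of 14 had risen and 9 had fallen. These counts include entries that overlap the member, which may share reads with its gene body.

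Klf13 has 12 tested intergenic entries between 17.7 and 119.5 kb upstream of its start, in the stretch between Klf13 and Trpm1, which the file names with it. In all 12, mean signal was higher at 13 h than at both 0 h and 24 h. That shape was seen in 23.3% of the 10044 tested intergenic entries of the series and in 4 of 47 intergenic entries of the other members. Some of the 12 are opposite strands of a single peak and all lie in the same stretch, so they are not independent. They were also picked after their values were seen, so these shares describe them and no more. At 13 h relative to 0 h, 10 of the 12 had risen and 0 had fallen. At 24 h relative to 0 h 6 were higher and 1 was lower, and between 13 h and 24 h 4 fell and 0 rose, where 7.82% of all entries fell and 5.28% rose. The start entry of Klf13 kept the order of the gene body instead, at 90.7 ± 22.8, 227 ± 43.1 and 356 ± 17.3 CPM at 0 h, 13 h and 24 h (1.33 ± 0.21 and 1.97 ± 0.22 relative to 0 h, adjusted p = 0.000399 and 7.19e-06).

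The strongest of these upstream regions lay 110.6 kb before the start (chr7:71192200-71196601, mm9). It had 88.4, 64.0 and 68.0 CPM at 0 h, 188 and 199 CPM at 13 h, 95.2 and 68.3 CPM at 24 h, and 111 and 84.7 CPM in G1E. The 13 h libraries stood above all others, and the 24 h and 0 h libraries overlapped. It rose at 13 h relative to 0 h (1.40 ± 0.21, adjusted p = 0.000227), fell between 13 h and 24 h (-1.24 ± 0.24, adjusted p = 0.00598), and differed by 0.15 ± 0.21 at 24 h relative to 0 h (adjusted p = 0.565). The fall missed the threshold without 24 h replicate 2 (-0.95, adjusted p = 0.108).

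Nearer the gene, regions that were almost silent at 0 h appeared at 13 h. The entry 35.7 kb upstream (chr7:71118400-71120551, mm9) had 0.241, 0.280 and 0.151 CPM at 0 h, 5.98 and 4.39 CPM at 13 h, 1.42 and 1.37 CPM at 24 h, and 0.0897 and 0.199 CPM in G1E. It rose by 4.54 ± 0.47 at 13 h (adjusted p = 1.05e-05) and was still higher at 24 h than at 0 h (2.65 ± 0.47, adjusted p = 0.00035), with a fall between 13 h and 24 h (-1.89 ± 0.47, adjusted p = 0.019). The entries 52.6 kb (4.21 ± 0.54, adjusted p = 6.19e-05) and 59.9 kb upstream (plus strand, 4.66 ± 0.57, adjusted p = 7.16e-05) rose likewise at 13 h. Their lower values at 24 h than at 13 h did not pass the test (-1.60 ± 0.54 and -1.85 ± 0.58, adjusted p = 0.0634 and 0.0546). The entry 75.3 kb upstream had 6.21, 3.45 and 2.84 CPM at 0 h, 23.6 and 18.4 CPM at 13 h, and 6.90 and 2.36 CPM at 24 h (2.34 ± 0.50 at 13 h relative to 0 h and -2.18 ± 0.57 at 24 h relative to 13 h, adjusted p = 0.00352 and 0.0279). The falls after 13 h rest on few libraries. The fall at 35.7 kb was lost without any one of the 13 h and 24 h libraries (adjusted p from 0.0539 to 0.142). The fall at 75.3 kb was lost without either 13 h library or 24 h replicate 2 (0.0702 to 0.203). The remaining fall, 73.1 kb upstream (-1.84 ± 0.47, adjusted p = 0.0217), was lost without 13 h replicate 1 (0.0935) or 24 h replicate 2 (0.199). That entry was also the 1 that was lower at 24 h than at 0 h (-1.59 ± 0.44, adjusted p = 0.00763), a call lost without 24 h replicate 2 (-1.05, adjusted p = 0.126). In a fit with the leading digits of the library number as a block, which 13 h and 24 h libraries never share, none of the 4 falls passed the test (adjusted p = 0.5, 0.209, 0.288 and 0.0875 at 35.7, 73.1, 75.3 and 110.6 kb).

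Inside Klf13 the strands differed. The 5 sense strand entries and the 2 entries on both strands had all risen at 13 h and at 24 h relative to 0 h. These entries may share reads with the gene body, so their rise need not be new initiation, which was not tested. The median of the sense strand entries was 1.90 at 13 h and 2.62 at 24 h, beside 2.01 and 2.72 for the gene body. Of the 5 antisense strand entries, 0 had risen and 1 had fallen at 13 h, and 1 had risen and 1 had fallen at 24 h, with a median of -1.03 at 24 h. The one that fell, 28.1 kb into the gene, held 5 reads over the 13 h libraries and 2 reads over the 24 h libraries, against 52 reads over the 0 h libraries. It was 14.8-fold lower at 24 h than at 0 h (95% counting interval 3.89 to 125).

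**Figure D4:**
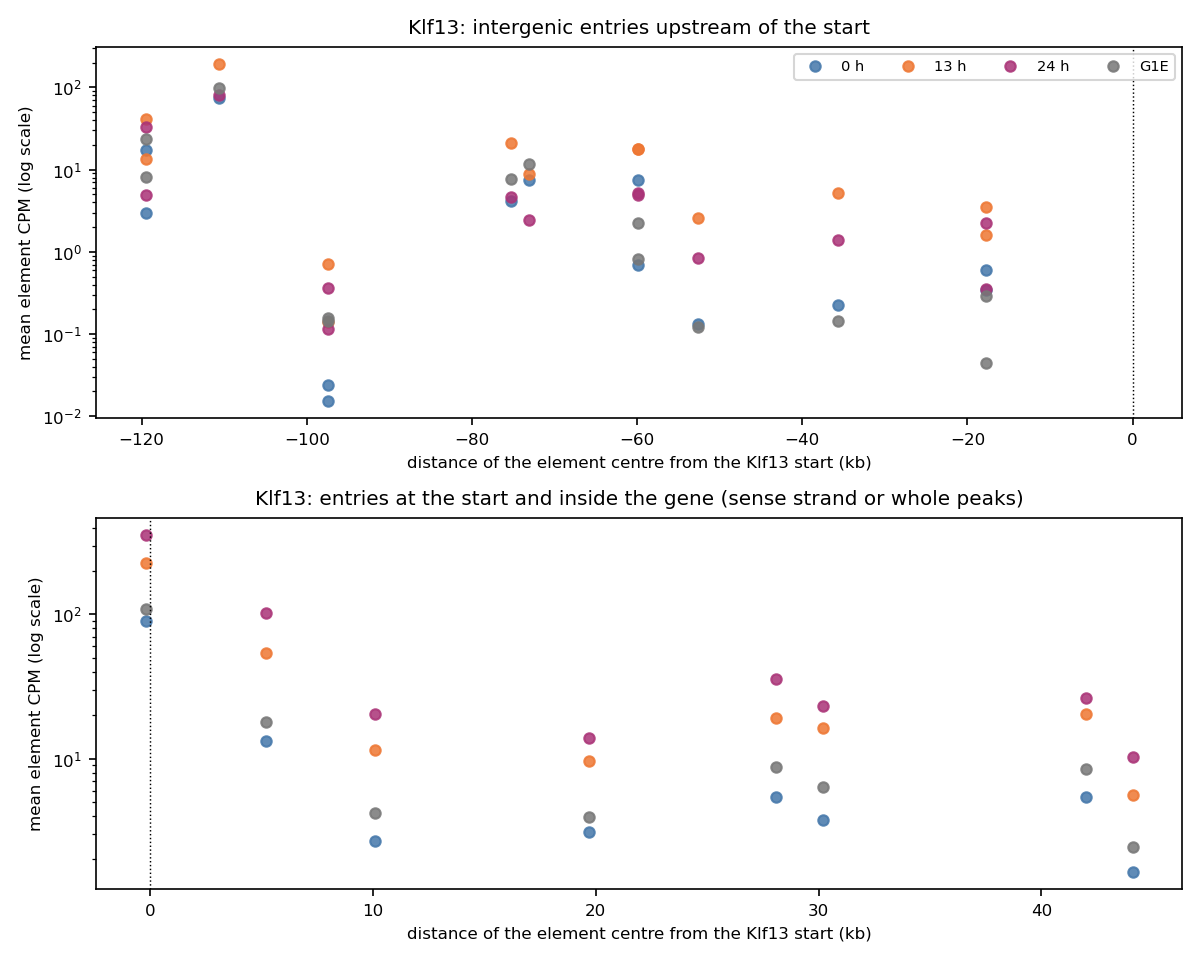
Group mean CPM (log scale, values under 0.01 drawn at 0.01) of the dREG entries of Klf13 against the distance of the entry centre from the Klf13 start (kb, negative upstream), for 0 h, 13 h and 24 h of estradiol and for G1E. In the upper panel the 13 h point is above the 0 h and 24 h points at each tested intergenic entry. The lower panel leaves out the antisense strand entries. There the 24 h point is highest at the start and at the sense strand and whole-peak entries inside the gene.

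At Klf9 and Klf10, the start entries and some of the intergenic regions fell, as the gene bodies did, and no tested entry of either gene rose relative to 0 h. Of the 2 tested intergenic entries of Klf9, 1 fell at 13 h and 1 at 24 h. Of the 13 of Klf10, 8 fell at 13 h and 9 at 24 h, where 18.6% and 29.5% of all entries fell. The Klf9 region 6.3 kb upstream (chr19:23207300-23211601, mm9) had 170, 191 and 170 CPM at 0 h, 21.1 and 38.5 CPM at 13 h, 32.6 and 36.5 CPM at 24 h, and 91.7 and 113 CPM in G1E. The estradiol libraries lay far below the others. Its log2 fold changes relative to 0 h were -2.57 ± 0.26 at 13 h and -2.36 ± 0.25 at 24 h (adjusted p = 8.13e-06 and 6.02e-06), against -1.55 ± 0.23 and -1.14 ± 0.22 for the Klf9 start entry (0.000188 and 0.000791). The Klf10 start entry averaged 39.8 ± 2.06 CPM at 13 h and 41.0 ± 10.7 CPM at 24 h, against 177 ± 10.6 CPM at 0 h (-2.15 ± 0.21 and -2.11 ± 0.21, adjusted p = 6.69e-06 and 3.14e-06). The region 84.1 kb upstream of Klf10 averaged 6.46 ± 0.348 CPM at 13 h and 3.37 ± 1.43 CPM at 24 h, against 17.9 ± 3.43 CPM at 0 h (-1.47 ± 0.35 and -2.40 ± 0.37, adjusted p = 0.0056 and 0.000129). The region 170.1 kb upstream averaged 3.90 ± 0.697 and 2.96 ± 1.07 CPM, against 27.0 ± 11.1 CPM at 0 h (-2.79 ± 0.38 and -3.18 ± 0.39, adjusted p = 9.78e-05 and 1.75e-05). These 2 starts and 3 upstream regions fell at 13 h and were also lower at 24 h than at 0 h.

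Most entries of Klf11 rose. At 24 h relative to 0 h, 9 of 10 had risen and 0 had fallen, where 22.7% of all entries rose and 29.5% fell. The 10 entries come from 6 peaks, and some are opposite strands of a single peak, so they are not independent. Among them, 3 lie inside another gene. The region 6.8 kb upstream (plus strand) averaged 7.33 ± 2.46 CPM at 13 h and 3.93 ± 0.677 CPM at 24 h, against 0.604 ± 0.102 CPM at 0 h (3.58 ± 0.45 and 2.68 ± 0.45, adjusted p = 5.51e-05 and 0.000232). The minus strand entry 11.6 kb upstream averaged 11.8 ± 3.96 CPM at 24 h, against 1.83 ± 0.284 CPM at 0 h (2.67 ± 0.36, adjusted p = 3.99e-05). The region 6.8 kb upstream passed the test at both times and the Klf11 start at 24 h, a difference in timing that was not tested.

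At Klf6, the gene rose and several upstream regions fell. The sense strand entry at the Klf6 start, which the file assigns to its neighbour 1700016G22Rik, averaged 122 ± 20.5 CPM at 24 h, against 37.0 ± 11.9 CPM at 0 h (1.72 ± 0.26, adjusted p = 0.000115). The region 16.3 kb upstream (chr13:5843500-5845401, mm9) had 22.5, 20.5 and 20.02 CPM at 0 h, 5.32 and 2.45 CPM at 13 h, 2.33 and 2.08 CPM at 24 h, and 17.0 and 20.2 CPM in G1E. It fell by 2.44 ± 0.33 at 13 h and by 3.25 ± 0.35 at 24 h on the log2 scale (adjusted p = 0.000107 and 6.52e-06). The region 57.3 kb upstream averaged 0.468 ± 0.0496 CPM at 13 h, against 2.46 ± 0.962 CPM at 0 h (-2.37 ± 0.46, adjusted p = 0.00139). Of the 8 tested intergenic entries of Klf6, 5 fell at 13 h and 0 rose, where 18.6% of all entries fell and 15.2% rose. The minus strand entry 10.9 kb upstream had 10.4, 8.11 and 13.7 CPM at 0 h, 16.1 and 15.5 CPM at 13 h, and 11.8 and 95.1 CPM at 24 h. Its increase at 24 h (2.31 ± 0.65, adjusted p = 0.0156) came from 24 h replicate 2, with 3065 reads against 441 in replicate 1. Without that library it was 0.29 (adjusted p = 0.545), and leaving out 0 h replicate 1 or 2 or either 13 h library also ended the call (0.0602 to 0.0718).

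At Klf3, distal regions went both ways, and more fell than rose. Of its 12 tested intergenic entries, 2 rose and 6 fell at 13 h relative to 0 h. Of all entries, 15.2% rose and 18.6% fell. At 24 h relative to 0 h, 2 of the 12 rose and 9 fell, where 22.7% of all entries rose and 29.5% fell. The region 123.5 kb upstream (chr5:65070400-65072151, mm9) had 0.589, 0.901 and 2.12 CPM at 0 h, 0.0289 and 0.0719 CPM at 13 h, 0 and 0.0931 CPM at 24 h, and 29.4 and 26.3 CPM in G1E. It was lower at 0 h than in G1E (-4.50 ± 0.49, adjusted p = 3.06e-05), lower again at 13 h than at 0 h (-4.47 ± 0.79, adjusted p = 0.000864), and 30.9-fold lower at 24 h than at 0 h (95% counting interval 10.4 to 151), with 3 reads over the 24 h libraries. The region 155.6 kb upstream was read at 0.352 ± 0.0926 CPM at 0 h, against 16.4 ± 4.15 CPM in G1E (-5.52 ± 0.48, adjusted p = 2.90e-06). By contrast, the region 62.3 kb upstream rose by 4.12 ± 0.68 at 24 h relative to 0 h (adjusted p = 0.000222), at 1.20 and 7.04 CPM in the 24 h libraries, against 0.134, 0.186 and 0.359 CPM at 0 h. Without 24 h replicate 2, the higher library, the rise was 2.51 and still passed the test. The region 88.7 kb upstream rose at 13 h (1.41 ± 0.34, adjusted p = 0.00571) and at 24 h (1.43 ± 0.34, adjusted p = 0.00305), to 13.5 ± 1.91 and 13.7 ± 0.163 CPM, against 5.08 ± 1.70 CPM at 0 h. It was lower at 0 h than in G1E (-1.66 ± 0.34, adjusted p = 0.00329), and that difference missed the threshold without G1E replicate 1 (-1.08, adjusted p = 0.13).

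**Figure D5:**
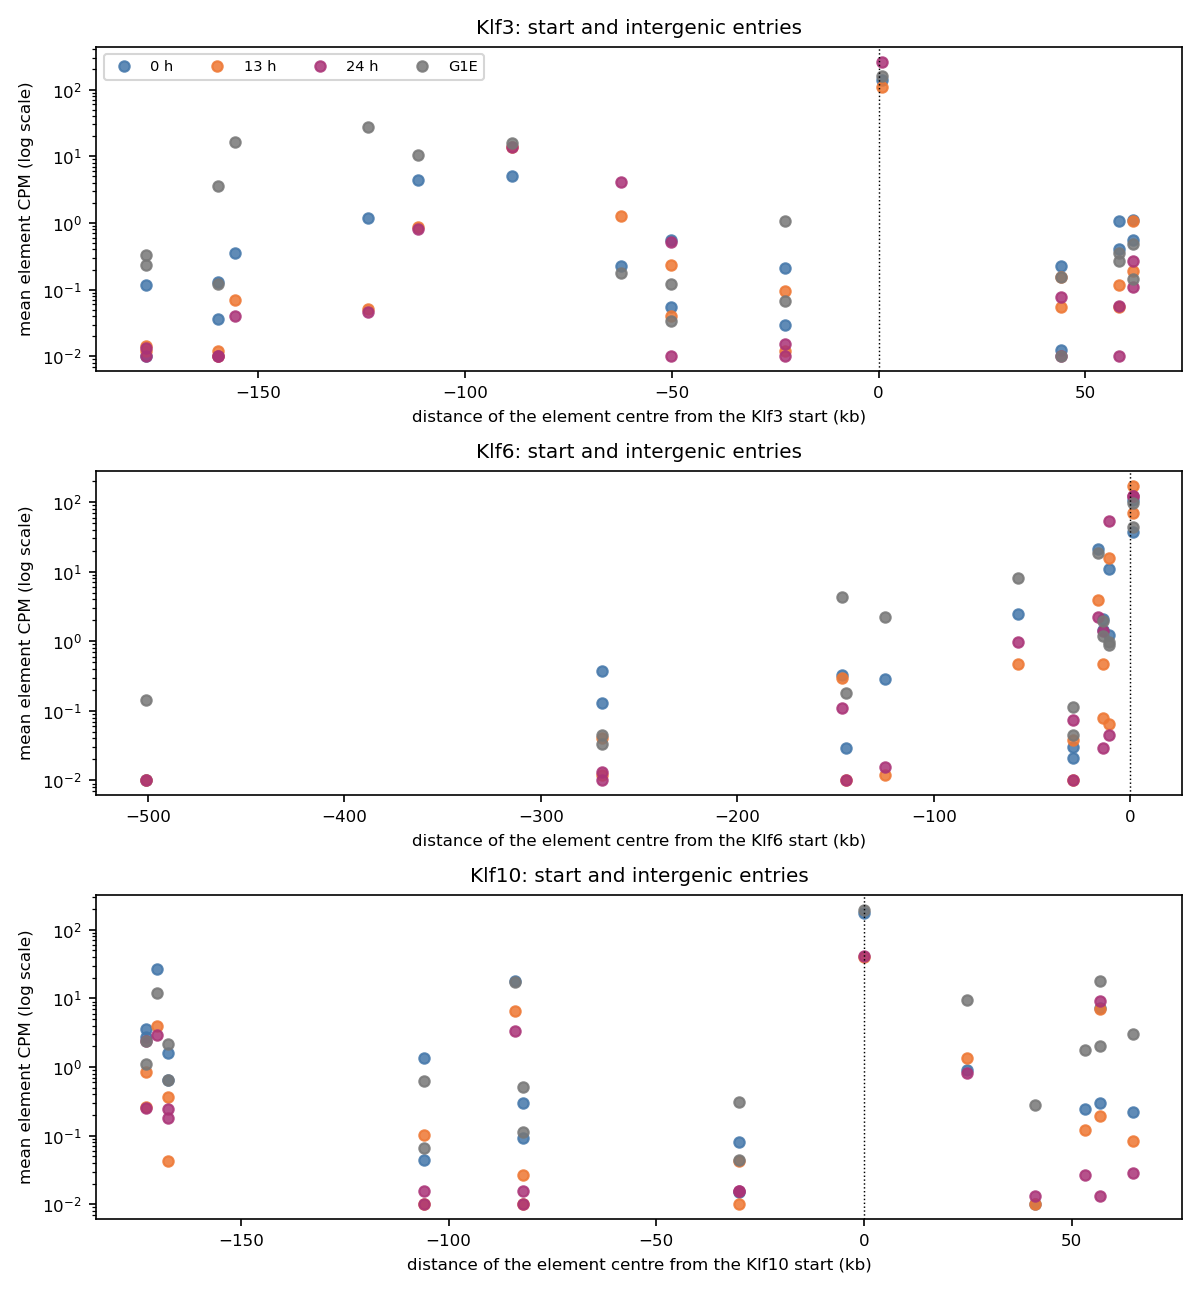
Group mean CPM (log scale, values under 0.01 drawn at 0.01) of the start and intergenic dREG entries of Klf3, Klf6 and Klf10 against the distance of the entry centre from the gene's start (kb, negative upstream). At Klf3 the entries 155.6 and 123.5 kb upstream are highest in G1E, at Klf6 the entry 16.3 kb upstream is lower at 13 h and 24 h than at 0 h, and so are the start and the entries 84.1 and 170.1 kb upstream at Klf10.

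Entries also differed between untreated G1E-ER4 cells and G1E cells. At 0 h, 5 of the 97 entries were higher and 19 were lower than in G1E, where 19.3% of all entries differed (7.18% higher and 12.1% lower). The count was 11 without G1E replicate 1. The lower entries named Klf3 (6 of 17 tested), Klf10 (5 of 14), Klf4 (3 of 3), Klf6 (3 of 10) and Klf13 (2 of 25). One of them, 24.7 kb downstream of the Klf10 start, had 1.39, 0.435 and 0.926 CPM at 0 h, against 10.1 and 8.95 CPM in G1E (-3.37 ± 0.55, adjusted p = 0.000659). The Klf4 entry 820.3 kb upstream, which also names Actl7a, held 0 reads in all 7 G1E-ER4 libraries, against 295 and 55 reads in G1E. It was at least 239-fold lower at 0 h than in G1E, taking 3 reads over the group as the floor, and edgeR gave an adjusted p = 3.52e-05, where DESeq2's Wald test gave 0.0837. The Klf4 row itself held at most 1 read in a library. The 3 Klf4 entries held 46, 92 and 350 reads in G1E, against 1, 0 and 0 reads at 0 h. They passed the filter only through G1E, so their lower calls and p-values describe them and no more. At Klf2, whose row is at 0, the region 50.4 kb upstream had 13.6 ± 5.21 CPM at 0 h, 4.09 ± 0.315 CPM at 13 h and 0.875 ± 0.254 CPM at 24 h (-1.73 ± 0.35 and -3.96 ± 0.41 relative to 0 h, adjusted p = 0.0021 and 4.84e-06).

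Among 31 textbook targets of KLF1, 29 were tested, and 15 had risen and 2 had fallen at 13 h relative to 0 h, where 20.1% of all genes rose and 20.9% fell. At 24 h, 20 had risen and 3 had fallen, where 29.0% of all genes rose and 30.7% fell, with a median of 1.70 beside -0.07 for all genes. The largest increases were those of Alas2, the erythroid haem synthesis enzyme (9.34 ± 0.55, adjusted p = 9.28e-07), Slc4a1, the red cell anion exchanger band 3 (8.72 ± 0.67, adjusted p = 3.93e-06), and Hbb-b1, an adult beta globin gene whose reads may be shared with its near-identical copy (7.30 ± 0.80, adjusted p = 5.28e-05). Those that fell were Cd44, an adhesion receptor (-3.62 ± 0.26, adjusted p = 2.56e-06), Bcl11a, the repressor of fetal globin (-2.63 ± 0.34, adjusted p = 8.65e-05), and E2f4, a cell cycle factor (-0.34 ± 0.13, adjusted p = 0.0492). Between 13 h and 24 h, where Klf1 did not pass the test, 15 of the 29 rose and 2 fell, where 11.7% of all genes rose and 12.5% fell. At 0 h relative to G1E, 4 were higher and 5 lower, where 7.88% of all genes were higher and 9.58% lower.

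Partners of KLF proteins moved both ways. Of 14 co-regulators, 2 rose and 6 fell at 13 h relative to 0 h, beside 20.1% and 20.9% of all genes, and 5 rose and 7 fell at 24 h, beside 29.0% and 30.7%. Fhl3, a LIM-domain partner of KLF3 (-2.11 ± 0.17, adjusted p = 5.33e-06), Ctbp2, a corepressor of KLF3 (-1.72 ± 0.14, adjusted p = 6.54e-06), and Hdac2, a histone deacetylase (-0.85 ± 0.15, adjusted p = 0.000876), fell most at 24 h. Wwp1, a ubiquitin ligase (1.43 ± 0.17, adjusted p = 5.26e-05), and the acetyltransferases Crebbp (1.40 ± 0.11, adjusted p = 4.48e-06) and Ep300 (1.02 ± 0.12, adjusted p = 5.27e-05) rose most. Of 16 further KLF and SP genes, 8 were tested, and 4 rose and 1 fell at 13 h and 3 rose and 2 fell at 24 h. These 5 of 8 called at each time stand beside 41.0% of all genes at 13 h and 59.7% at 24 h. Klf7 held 1 and 7 reads at 13 h and 2 and 3 reads at 24 h, against 109, 83 and 248 reads at 0 h (-4.77 ± 0.64 and -5.37 ± 0.68, adjusted p = 0.000307 and 7.81e-05), and it was higher at 0 h than in G1E (2.14 ± 0.52, adjusted p = 0.0177). Klf16 had 32.8 and 20.3 CPM at 24 h, against 55.4, 54.8 and 59.2 CPM at 0 h (-1.09 ± 0.25, adjusted p = 0.00397). Klf5, Klf8, Klf14, Klf15 and Klf17 held 0 to 5 reads per library. Sp4 (1.37 ± 0.22, adjusted p = 0.00035), Sp2 (0.84 ± 0.13, adjusted p = 0.000314) and Sp3 (0.55 ± 0.11, adjusted p = 0.00205), which bind the same GC-rich sequences, rose at 24 h.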

How the data were processed

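PRO-seq counts of 9 libraries in 4 groups were taken as deposited. Per the file headers, the authors deposited raw counts per gene body (24391 genes) and raw counts per dREG entry (42114 entries, 11718 of them whole peaks and 30396 single strands). The deposited peak table also gives a position in the overlapped gene as a percent, which was not used as a measure. The submitters' processing notes name BWA and the build mm9. How reads were counted, with which annotation and whether by strand is not given in the sources used here.

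The test was edgeR 4.0.16 under R 4.3.3 (TMM, default expression filter, 4 group means, robust quasi-likelihood, 5 residual degrees of freedom), with Benjamini-Hochberg adjustment across 13825 genes or 35158 entries. The SE is the absolute log2 fold change over the square root of F. A group at 0 reads was given a floor of 3 reads over the group, and a group with 1 to 3 reads a ratio with its 95% counting interval. These cover counting error only. DESeq2 1.42.0 was an alternative. The scripts were tested on simulated data for 24 h relative to 0 h. The test recovered 68% of log2 changes of 1 and 92% of log2 changes of 2 in gene bodies. In entries it recovered 16% and 84%, so an entry that did not pass the test may still have changed. Changes were placed only in genes and entries above a minimum mean count, so recovery may be lower where reads are few.

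All members are described. Genes most like Klf1 and Klf3 were taken by Pearson r of log2(CPM + 0.5), with a mean count of at least 50. Of each other list, the 3 largest increases and the 3 largest decreases at 24 h relative to 0 h that passed the test are named, plus each further KLF gene. The entries named were picked after their values were seen. Members, lists and tests were chosen with earlier results of these data known. Replicate numbers did not pair the libraries throughout: of 12 same-numbered pairs, 4 deviated together at a correlation over 0.1 (-0.24 to 0.57). The highest were both pairs of 13 h and 0 h libraries (0.57 and 0.55), whose library numbers also share their leading digits. Promoters are from RefSeq (GRCm38.p6), and 9 of 10 members matched.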

Additional observations from a re-analysis of the deposited data

How the results depend on the processing

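The calls of all 7 genes at 24 h relative to 0 h held under every alternative, and their count stayed at 7 with any library left out. The number of genes called at 13 h relative to 0 h was 5 to 7 with a library left out, and 4 with the replicate number as a block. For 24 h relative to 13 h it was 1 to 3 with a library left out, 1 with total counts in place of TMM and 0 with the leading digits of the library number as a block. For 0 h relative to G1E it was 0 to 2 with a library left out, and 1, Klf10, with DESeq2, without the low-count filter and with the compared groups alone. It was also 1 with the library-number block, but there the gene was Klf6 (-1.16, adjusted p = 0.046, beside -0.37 without the block). Entries called numbered 41 to 58 at 13 h and 52 to 66 at 24 h relative to 0 h with a library left out, and 16 and 21 among the 27 that overlap a member. For 24 h relative to 13 h they numbered 4 to 20 with a library left out (20 without 0 h replicate 1, 7 without 13 h replicate 1, 4 without 24 h replicate 2), 20 with DESeq2, 20 with the replicate block, 4 with the library-number block and 6 among overlapping entries. For 0 h relative to G1E they numbered 11 to 29, and 3 among overlapping entries.

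Reversed values were all of differences that did not pass the test. For 24 h relative to 13 h, Klf1 was at -0.23 with total counts, -0.16 with the library-number block and between -0.077 and 0.23 with a library left out. Klf9 was at 0.13 with that block and between -0.29 and 0.16, and Klf10 between -0.72 and 0.022, with a library left out. For 0 h relative to G1E, Klf1 was between -0.059 and 0.49 and Klf3 between -0.0057 and 0.11 with a library left out, and Klf3 at -0.0047 with the replicate block. The cause was not tested. The replicate block also ended the calls of Klf3, Klf6 and Klf11 at 13 h relative to 0 h (adjusted p = 0.105, 0.0569 and 0.0527), and its samples share a number and no stated origin. Klf3 at 24 h relative to 13 h missed the threshold with the library-number block (adjusted p = 0.0619). Total counts in place of TMM moved the median of all genes to -0.12 at 13 h and -0.45 at 24 h relative to 0 h and to -0.34 between 13 h and 24 h, beside -0.02, -0.07 and -0.05. Depth limits the entries under 1 CPM, and G1E replicate 2 is the shallowest library.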
